A study of Mus musculus with 42 samples.

Results

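The growth hormone (GH), STAT5 and IGF1 axis was followed in mouse liver through 9 genes: the receptor gene Ghr, the signal transducers Stat5a and Stat5b, the feedback inhibitors Cish and Socs2, the circulating products Igf1 and Igfals, and the transcription factor genes Bcl6 and Onecut1. They were chosen by name as core genes of the pathway, and all 9 were listed in each of the 6 deposited tables, out of 19758 gene names in any table and 12742 in all of them. Whole livers of 42 male C57BL/6J mice were sequenced, 7 in each of 6 groups, with 1 library per mouse. ChemR23, encoded by Cmklr1, is a receptor of resolvin E1 (RvE1), a mediator derived from eicosapentaenoic acid. The knockout (KO) mice lack ChemR23 through CRISPR/Cas9 editing, and the wild type (WT) mice were their littermates. WT lean and KO lean mice ate a control diet with 10% of its energy as fat, and WT obese and KO obese mice ate a high fat diet with 60%, from 6 weeks of age for 15 weeks. WT obese+RvE1 and KO obese+RvE1 mice ate the high fat diet and were injected with 300 ng of RvE1 into the abdomen on 4 days, while the other groups, lean ones included, received vehicle. Livers were taken after a fast of some hours. The knockout is not limited to 1 cell type, and whole tissue does not separate hepatocytes from other liver cells.

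Pulses of GH from the pituitary bind GHR on hepatocytes, which activates the kinase JAK2 and, through it, STAT5A and STAT5B. Phosphorylated STAT5 dimers enter the nucleus and bind sites with the letters TTCNNNGAA, at which they switch on Igf1, Igfals, Socs2 and Cish, and in male mice the pulsed pattern keeps male-biased liver genes on and female-biased ones off. CISH and SOCS2 return to the receptor and shut its signal down, and BCL6 is a repressor that binds many of the same sites as STAT5. Transcripts of Cish, Socs2 and Bcl6 are known to follow single GH pulses, in opposite directions for Cish and Bcl6, and each liver here was sampled at 1 moment.

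STAT5 motifs near the start sites of these genes were read from RefSeq promoter windows on GRCm38.p6, 300 bases long, from 250 before to 50 after each start. The motif TTCNNNGAA reads the same on both strands. It was in 2726 of 32851 windows (8.30%) and at least 2 times in 150 windows (0.457%). Of the 9 genes 8 had windows, 14 in all, and Socs2 was not matched. The stretches below hold every match, written 5′ to 3′ on the gene's strand with the motif in capitals. Levels of Cish ran opposite to those of Bcl6 from mouse to mouse. Those of Onecut1, whose window held no match, did so too. Whether the motifs bear on this was not tested.

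Cish, chr9:107296654-107296683, plus strand: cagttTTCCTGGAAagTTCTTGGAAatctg

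Bcl6 downstream start, chr16:23981353-23981461, minus strand: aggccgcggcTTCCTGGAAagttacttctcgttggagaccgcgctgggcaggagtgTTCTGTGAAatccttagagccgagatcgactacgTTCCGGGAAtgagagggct

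Bcl6 upstream start, chr16:23988952-23988980, minus strand: agcaaattagTTCTCAGAAttccagaggc

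Igfals, chr17:24877598-24877626, plus strand: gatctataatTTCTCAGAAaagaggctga

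Igfals, chr17:24878163-24878191, plus strand: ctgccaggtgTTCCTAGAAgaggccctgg

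Cish held 2 motifs, the first beginning at the start site itself and the second 11 bases further on, and all 30 printed bases lie in an exon, within the 5′ UTR, by GENCODE M21. The window of the downstream Bcl6 start held 3 motifs, beginning 168, 122 and 88 bases before it, and only 11 of all windows (0.033%) held as many. The upstream Bcl6 start had 1, at 118 bases, and 2 Igfals starts had 1 each, at 236 and 58 bases. None of these Bcl6 or Igfals stretches overlaps a GENCODE M21 exon of Bcl6, Igfals or Cish, and exons of other genes were not checked. The windows of Ghr, Stat5a, Stat5b, Igf1 and Onecut1 held no match, which says only that these letters are absent from those windows. A match in sequence is not a measured binding site.

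Each deposited table holds counts of read pairs divided by size factors for 14 libraries, called normalized counts here, and groups were compared only within a table. Reads on listed genes ran from 15960120 to 43755273 per mouse, with a median of 24253532, and the lowest read count of any member in any mouse was 45, for Cish. Cmklr1, the targeted gene, had 3 to 37 reads in the 21 KO mice and 27 to 244 in the 21 WT mice. With reads scaled to a common library total (RPM), all 21 KO mice lay below the lowest WT mouse. The number that opens a mouse's identifier (21 in 21L) is shared by several mice of a group, except for 19R, 22L and 23L, each alone with its number in its group. No number but 23 occurs in more than 1 group. The labels do not say what it stands for, so values by this number are given where members followed it. Nothing in the labels says that mice of a group were housed apart. The main p-values of the group tests treat mice as independent. They measure the spread between mice, not between numbers, of which each group held 2 to 4. Fitting the number as a random block gave consensus correlations from 0.0643 to 0.373 across the comparisons.

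Relative levels were set by RPM per kilobase of exon, on genes present in all tables. Igf1, which encodes the growth factor that the liver releases into blood, was the most abundant, with a median over 42 mice of 107 and a range of 59.3 to 140. Ghr followed at 67.8 (33.1 to 96.8), and then Igfals, which encodes the acid-labile subunit that holds IGF1 in its circulating complex, at 41.2 (27.3 to 59.9). Stat5b stood at 11.5 (7.84 to 19.6), and its neighbour on the chromosome, Stat5a, was the least abundant at 1.65 (0.744 to 3.65). Bcl6 had 4.81 (1.22 to 17.7), Onecut1 3.78 (1.02 to 45.7), Socs2 2.71 (0.516 to 14.2) and Cish 2.41 (0.373 to 12.5). Ranked by median, neighbours overlapped in range except Igfals and Stat5b. The ranges of Stat5b and Stat5a, which are not neighbours in that ranking, did not overlap either. Stat5b (chr11:100780731-100850724, minus strand) and Stat5a (chr11:100859351-100885169, plus strand, GENCODE M21 on GRCm38) are adjacent genes of similar sequence. The other members lie apart, with Ghr at chr15:3317760-3583492, Socs2 at chr10:95385362-95417180, Igf1 at chr10:87858265-87937042 and Onecut1 at chr9:74861921-74891781. How reads shared by the Stat5 pair were assigned is not given in the sources used here.

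**Figure D1:**
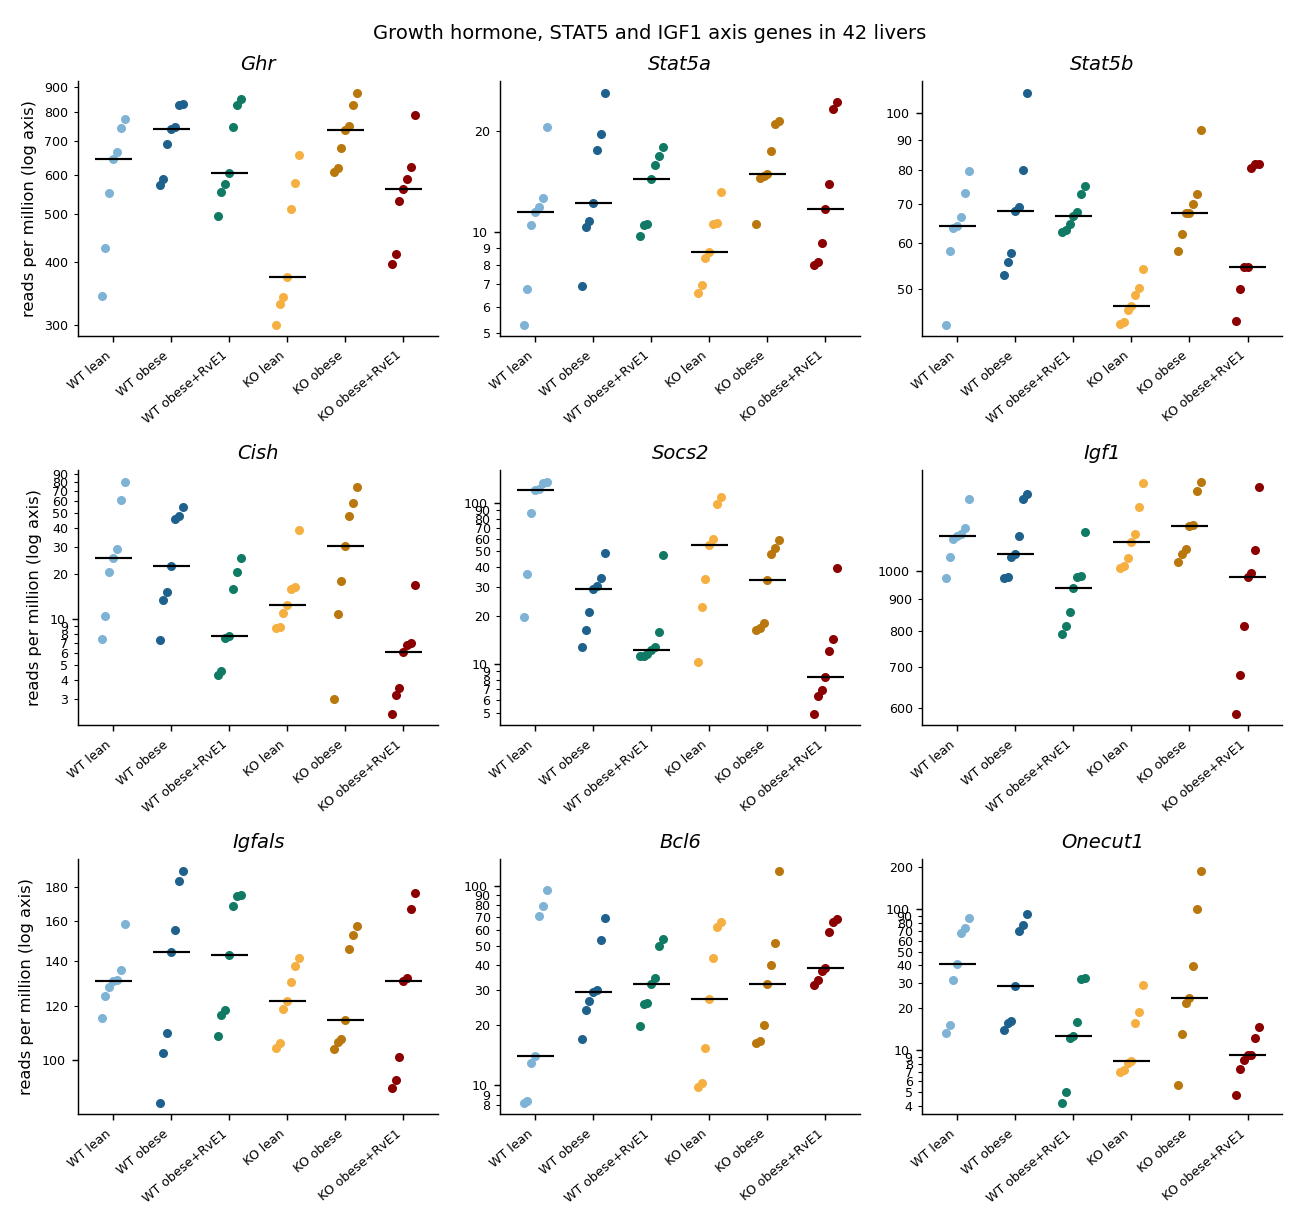
Levels in RPM on genes present in all tables (log axis) for each of 42 mice, 1 panel per gene, with a black line at each group's median. Socs2, Cish, Bcl6 and Onecut1 spread over more than 10-fold among the 42 mice, while Igf1, Igfals and Stat5b stay within 2.19 to 2.50 times from lowest to highest.

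The 9 genes split by how much they varied among mice of the same group. The pooled within-group SD on the log2 scale was 1.15 for Cish, 1.10 for Onecut1, 0.984 for Bcl6 and 0.942 for Socs2. At least 98.4% of the 12031 genes compared had a smaller SD than each of these. It was 0.470 for Stat5a, 0.428 for Ghr, 0.346 for Igf1, 0.322 for Stat5b and 0.311 for Igfals, against a median of 0.303 over all genes. The feedback inhibitors and both transcription factors were thus the most variable members, and Igfals, Stat5b and Igf1 the steadiest.

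Obesity in WT mice was set against WT lean mice, and of the 9 genes only Socs2 passed the test, where 6.27% of 14012 genes tested were called. The test was limma on log2(normalized count + 1), with a gene called at a Benjamini-Hochberg (BH) adjusted p under 0.1. Socs2, the suppressor of cytokine signalling that limits GH action on growth, ranged from 446 to 2978 normalized counts in WT lean mice, with a median of 2404. In WT obese mice it ranged from 332 to 1077, with a median of 506. Obese mice other than 27-2L lay at 638 or below, and lean mice other than 26R (446) and 8RL (891) lay at 1976 or above, so the groups overlapped only through these 3 mice. The log2 fold change was -1.67 (SE 0.38, limma adjusted p = 0.024), which is 3.19-fold lower in obese mice. No tested marker of hepatocytes or of another cell type was called in this comparison. Leaving out the mice of identifier number 21, 27 or 6 ended the call, with adjusted p of 0.109, 0.103 and 0.106.

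The other 8 genes did not pass in WT mice. Cish, the other feedback inhibitor, had a median of 573 in WT obese (161 to 1152) and 559 in WT lean mice (181 to 1822), and its log2 fold change of -0.14 had a 95% interval of -1.25 to 0.96. Igf1 had a median of 22210 against 25504 normalized counts, with a log2 fold change of -0.08 (95% interval -0.40 to 0.24). Igfals had 2667 against 2910, with a log2 fold change of -0.04 (95% interval -0.33 to 0.25). The intervals of both products are narrow beside that of Cish. The values for Ghr, Stat5a, Stat5b, Bcl6 and Onecut1 lay between -0.22 and 0.31, with adjusted p from 0.570 to 0.923.

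Obesity in KO mice gave a different set, with Ghr, Stat5a and Stat5b higher in KO obese than in KO lean mice, 3 of 9 where 24.1% of 14213 genes were called. That share of the members is near the background share of all genes. Stat5a ranged from 182 to 320 normalized counts in KO lean mice, with a median of 255, and from 267 to 589 in KO obese mice, with a median of 379. Mouse 31N (267) was the only obese mouse within the lean range, and 10RL lay just above it. Its log2 fold change was 0.67 (SE 0.17, limma adjusted p = 0.019). It was called in every alternative that was run for this comparison, with an adjusted p of 0.0773 at most.

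Ghr ranged from 7894 to 18965 normalized counts in KO lean mice, with a median of 9106, and from 13012 to 22068 in KO obese mice, with a median of 19350. The KO lean mice fell apart by identifier number: the 3 mice of number 20 had 15420 to 18965, and the 4 mice of numbers 9 and 14 had 7894 to 9106. The log2 fold change was 0.63 (SE 0.22, limma adjusted p = 0.062), a 1.54-fold higher level. It was 1.07 (adjusted p = 0.000558) without number 20. It was 0.44 without number 9, 0.45 without number 14 and 0.48 without number 31, with the call lost in each (adjusted p of 0.239, 0.205 and 0.315). The call was also lost without any 1 of the KO lean mice 14-2L, 14RL, 9L and 9RL or the KO obese mice 31N and 31R, with adjusted p from 0.102 to 0.126.

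Stat5b, the transducer that carries most of the GH signal in liver, ranged from 1049 to 1723 normalized counts in KO lean mice, with a median of 1285. In KO obese mice it ranged from 1339 to 2581, with a median of 1734, and 3 of the 7 lay within the lean range. Its log2 fold change was 0.40 (SE 0.15, limma adjusted p = 0.080). Leaving out any of those 6 mice, or KO obese mouse 23L or 31L, ended this call too, with adjusted p from 0.114 to 0.149, as did leaving out number 14, 23, 31 or 9, with adjusted p from 0.124 to 0.346. With a random block for the identifier number, Stat5a stayed called (adjusted p = 0.0773) while Ghr (0.105) and Stat5b (0.128) were not. In the same comparison 4 of 5 tested Kupffer cell markers were lower in KO obese mice, and the summed count of the list ran from 3533 to 4660 against 6173 to 14150 in KO lean mice. Of 7 lymphocyte markers 4 were lower, with sums of 65 to 122 against 111 to 197, and of 5 sinusoidal endothelial markers 3 were lower, with sums of 1959 to 3669 against 2877 to 4441. In bulk tissue fewer cells of a type and less RNA per cell cannot be told apart, and the part of these markers in the values of the 3 genes was not tested.

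The remaining 6 genes did not pass in KO mice. Socs2 had a median of 989 in KO obese (350 to 1424) and 1441 in KO lean mice (311 to 3014), with a log2 fold change of -0.65 (95% interval -1.59 to 0.30). Without number 20 it was -1.38 and was called (limma adjusted p = 0.0233). Onecut1, which encodes the hepatocyte factor HNF6, a GH-induced regulator of liver genes, had a median of 646 against 243. Its KO obese values ran from 157 in mouse 23L to 4836 in mouse 31R, and its log2 fold change of 1.27 (SE 0.61, limma adjusted p = 0.158) was called by edgeR and DESeq2 but not by limma. Without mouse 23L, limma gave 1.66 (adjusted p = 0.048), without KO lean mouse 20R it gave 1.53 (0.0816), and without number 31 it gave 0.78 (0.487). Igf1, Igfals, Cish and Bcl6 had adjusted p of 0.533 or above. Cish, at 0.59 on the log2 scale, was 1.12 and called without KO obese mouse 10RL (limma adjusted p = 0.0989), and was 0.085 without number 31.

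Whether the 2 genotypes differed in their response to diet was tested with an interaction term over 28 libraries. No member passed with limma, which called 0.00718% of 13924 genes, and 2553 reached an unadjusted p below 0.05, none of them a member. edgeR called 0 and DESeq2 0 of the members. For Socs2 the log2 fold changes differed by 1.02 (SE 0.63, limma adjusted p = 0.397) and Onecut1 by 1.5 (SE 0.84, adjusted p = 0.343). Ghr differed by 0.38 (SE 0.31, adjusted p = 0.544), and by 0.83 (adjusted p = 0.0985) without number 20. A call in one genotype and not in the other is therefore not shown to be a difference between them.

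**Figure D2:**
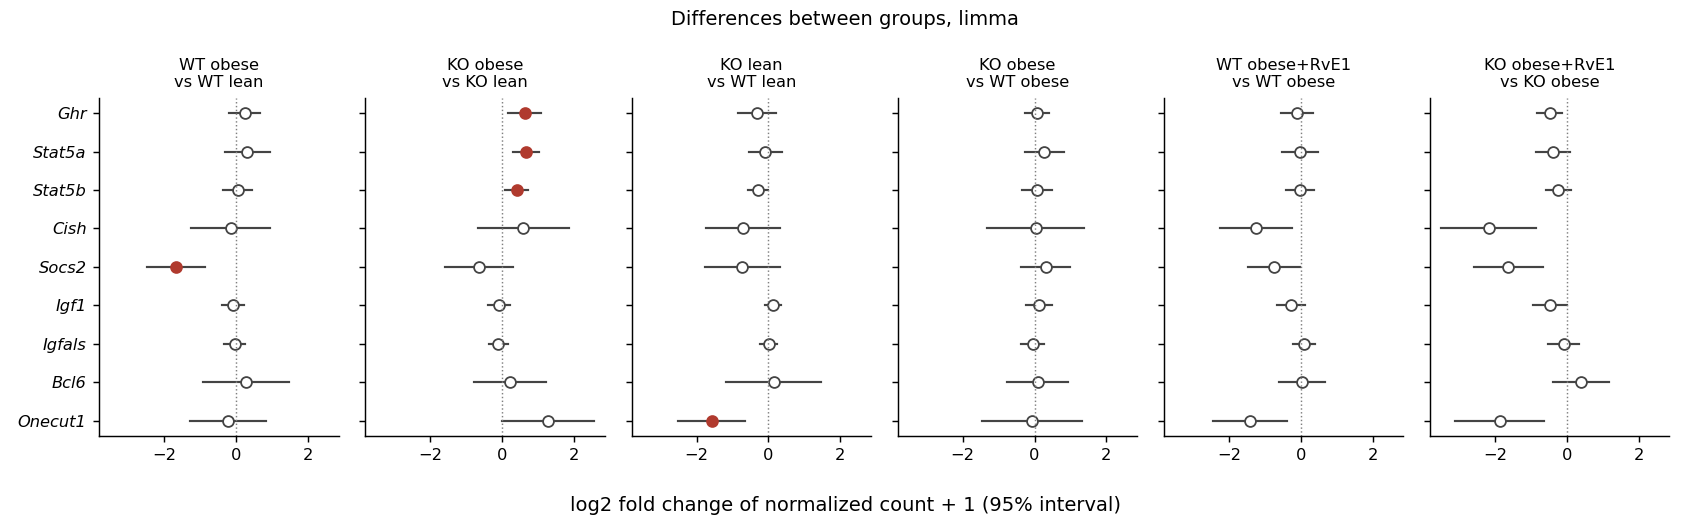
Log2 fold change of normalized count + 1 with its 95% interval for each gene in each of the 6 comparisons, with filled red points at a limma adjusted p under 0.1. Socs2 is filled for diet in WT mice, Ghr, Stat5a and Stat5b for diet in KO mice and Onecut1 for genotype in lean mice, and no point is filled in the other 3 comparisons.

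Loss of ChemR23 was examined in lean and in obese mice. The lean comparison uses the same WT lean and KO lean libraries as the diet comparisons, so its values are not independent of them. Onecut1 was lower in KO lean mice, 1 of 9 members where 16.3% of 13031 genes were called. It ranged from 312 to 1980 normalized counts in WT lean mice, with a median of 961. In KO lean mice it ranged from 173 to 840, with a median of 220, and 6 of the 7 lay at or under 410. The exception was mouse 20R (840), and 4 of the 7 WT lean mice lay above that. The log2 fold change was -1.58 (SE 0.44, limma adjusted p = 0.048), 2.98-fold lower. The call was lost with a random block for the identifier number (limma adjusted p = 0.146), without numbers 21 (0.167), 26 (0.109) or 9 (0.164), without WT lean mouse 21L (0.107) and without KO lean mouse 9L (0.105).

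All 5 tested Kupffer cell markers were higher in KO lean than in WT lean mice, with summed counts of 5624 to 12830 against 2320 to 5490, and their part in the value of Onecut1 was not tested. Stat5b had a median of 1166 in KO lean (953 to 1570) and 1515 in WT lean mice (1107 to 1892), with a log2 fold change of -0.29 (SE 0.14, limma adjusted p = 0.180). Ghr had a median of 8265 against 15177, with a log2 fold change of -0.32 (SE 0.25, limma adjusted p = 0.443), and both groups held low mice (numbers 9 and 14 in KO, number 8 in WT) beside high ones. Without number 20, Ghr and Stat5b were called lower in KO lean mice as well, and Stat5b was also called without mouse 20R or without number 8. Socs2 (-0.72, SE 0.50) and Cish (-0.71, SE 0.48) had adjusted p of 0.368 and 0.365. Igf1 and Igfals had log2 fold changes of 0.12 and 0.01.

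No member differed between KO obese and WT obese mice with limma, edgeR or DESeq2, where limma called 0.0141% of 14162 genes and 319 reached an unadjusted p below 0.05, no member among them. The log2 fold changes of the 9 genes lay between -0.08 and 0.31. The intervals were narrowest for Igfals (-0.36 to 0.25) and Ghr (-0.27 to 0.41), and widest for Onecut1 (-1.47 to 1.31) and Cish (-1.32 to 1.38). For Onecut1 and Cish a change of 1 on the log2 scale in either direction lies inside the interval and is not excluded here.

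RvE1 in obese mice was followed by lower values of Cish, Socs2 and Onecut1 in both genotypes, but none passed the adjustment with limma. In WT mice limma called 0% of 13085 genes and in KO mice 0% of 14207, with 795 and 1179 genes at an unadjusted p below 0.05. Over all genes edgeR called 1 in WT and 0 in KO mice, and DESeq2 called 25 and 17. At an unadjusted p below 0.05 from limma, 3 of 9 members were lower in WT mice (Cish, Socs2 and Onecut1) and 4 of 9 in KO mice (the same 3 and Ghr), and none was higher. These 2 comparisons share no mice. The 3 genes were singled out after their values had been seen.

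Cish in WT obese mice ranged from 188 to 1360 normalized counts, with a median of 671, and in WT obese+RvE1 mice from 103 to 627, with a median of 212. In WT mice the log2 fold change was -1.24 (SE 0.48, limma adjusted p = 0.772). In KO obese mice it ranged from 64.7 to 1940, with a median of 913, and in KO obese+RvE1 mice from 60.9 to 428, with a median of 121. All KO obese+RvE1 mice but 15-2L lay at or under 178, and all KO obese mice but 10RL lay at or above 302. For KO mice the value was -2.18 (SE 0.63, limma adjusted p = 0.557). DESeq2 called it (adjusted p = 0.0789) and edgeR did not (0.545).

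Socs2 in WT obese mice had a median of 592 (390 to 1264), and in WT obese+RvE1 mice 318 (255 to 1460). Of the 7 treated mice 6 lay between 255 and 360, all below the lowest vehicle mouse, and mouse 30R stood apart at 1460, above every vehicle mouse. Its log2 fold change was -0.74 (SE 0.34, limma adjusted p = 0.810). In KO mice the median was 213 with RvE1 (99.8 to 1005) against 993 (354 to 1438) without, and mouse 15-2L, which also had the highest Cish of its group, held the top value. The log2 fold change was -1.63 (SE 0.46, limma adjusted p = 0.557). DESeq2 gave an adjusted p of 0.314.

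Onecut1 in WT mice had a median of 358 with RvE1 (120 to 751) against 735 without (349 to 2323), a log2 fold change of -1.41 (SE 0.49, limma adjusted p = 0.772). Treated WT mice of number 30 had 120 to 384 and those of number 7 had 277 to 751. With mice or numbers left out the WT log2 fold change ran from -2.18 to -0.83. In KO mice the median was 188 with RvE1 (124 to 374) against 649 without (158 to 4879), a log2 fold change of -1.87 (SE 0.59, limma adjusted p = 0.557). DESeq2 called the KO difference (adjusted p = 0.0585). Among the KO vehicle mice, 31R stood at 4879 and 23L at 158, and all 7 treated KO mice lay below the vehicle median.

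Ghr in KO mice had a median of 12316 with RvE1 (9912 to 20272) against 19522 without (13261 to 22274), with a log2 fold change of -0.48 (SE 0.16, limma adjusted p = 0.557). Igf1 in KO mice had a median of 24896 (11925 to 34914) against 28933 (22083 to 40210), with a log2 fold change of -0.47 (SE 0.23, limma adjusted p = 0.596). In WT mice the log2 fold change was -0.11 for Ghr (95% interval -0.55 to 0.33) and -0.26 for Igf1 (95% interval -0.65 to 0.13). Stat5a, Stat5b, Igfals and Bcl6 had 95% intervals that included 0 in both genotypes. The interaction of RvE1 with genotype passed for 0 members and for 0% of 13059 genes, with 311 genes and no member at an unadjusted p below 0.05, and neither edgeR nor DESeq2 called a gene. For Cish the difference was -0.94 (95% interval -2.66 to 0.78) and for Socs2 -0.89 (95% interval -2.13 to 0.36), and both intervals are wide.

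Ghr followed the identifier number within groups. In WT lean mice the 2 mice of number 8 had 7696 and 8380 normalized counts, and the mice of numbers 21 and 26 had 14632 to 17636. In WT obese mice number 6 had 10923 to 12998 and number 27 had 15616 to 21677. In WT obese+RvE1 mice number 7 had 11260 to 13972 and number 30 had 20588 to 25995, without overlap. In KO obese mice number 10 had 13012 to 17829 and number 31 had 19350 to 22068. In the 3 WT groups the ranges of the numbers did not overlap. In KO lean mice number 20 stood above numbers 9 and 14, whose ranges overlapped. In KO obese+RvE1 mice the 2 mice of number 23 had 12316 and 20272, so there the number did not separate the mice. Stat5b followed the number too. Its ranges by number overlapped in WT lean and KO obese+RvE1 mice but in no other group. In WT obese+RvE1 mice its number 7 had 1432 to 1564 and number 30 had 1774 to 2066. Igf1 was also split in that group, with 16775 to 21343 for number 7 and 26965 to 35344 for number 30. In KO obese mice the Igf1 ranges of the numbers overlapped. Since all numbers but 23 are nested in the groups, whatever they stand for is not balanced across the groups.

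**Figure D3:**
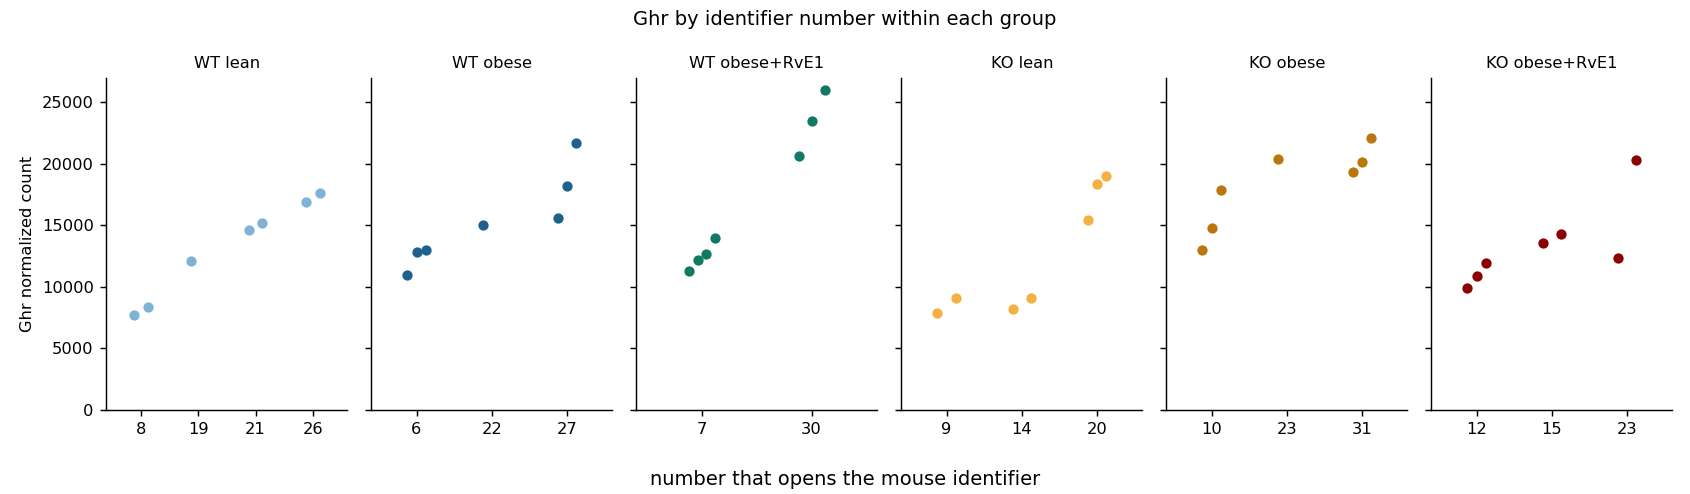
Ghr normalized count of each mouse, by the number that opens its identifier, in each of the 6 groups, with each group taken from its own table. In the WT groups the numbers do not overlap, as with 7 (11260 to 13972) and 30 (20588 to 25995) in WT obese+RvE1 mice, and in KO obese+RvE1 mice number 23 spans 12316 to 20272.

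Whether the genes rose and fell together from mouse to mouse was tested on deviations from the group mean, which removes diet, genotype and treatment. Over 42 mice and 36 pairs, 11 pairs passed a permutation test that shuffled mice within groups (100000 permutations, two-sided, BH adjusted p under 0.1), 8 of them positive and 3 negative. Cish and Onecut1 rose together (Pearson r = 0.767, Spearman rho = 0.753, permutation p = 1e-05, the smallest they can give, adjusted p = 0.00012), with a positive r within all 6 groups. Bcl6 ran opposite to Cish (r = -0.733, rho = -0.772, permutation adjusted p = 0.00012) and to Onecut1 (r = -0.597, rho = -0.633, permutation adjusted p = 0.000936), with a negative r within all 6 groups for each. Without the 2 mice farthest from the median of the first gene, r was 0.769, -0.732 and -0.535.

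Single mice show the pattern. In KO obese mice, 10RL had the lowest Cish of its group (64.0 normalized counts) and the highest Bcl6 (2557), while 31R had the highest Cish (1922) and Onecut1 (4836) with a Bcl6 of 516. In WT lean mice, Bcl6 stood at 180 to 317 in 19R, 21R, 21L and 26L and at 1429 to 2163 in 8R, 8RL and 26R. Those 3 mice had the lowest Cish of the group (181 to 371) and the lowest Onecut1 (299 to 567). The 4 with low Bcl6 had Cish of 559 to 1822 and Onecut1 of 922 to 1903. Mice 8R and 8RL share a number, and 26R and 26L, which also share one, fell on opposite sides.

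The same 3 relations were of similar size among mice that share an identifier number and a group. Over the 39 such mice, with deviations taken from the mean of the number, r was 0.833 for Cish and Onecut1, -0.716 for Cish and Bcl6 and -0.543 for Bcl6 and Onecut1, with permutation adjusted p of 0.00054, 0.00054 and 0.0559. Ghr and Stat5b had r = 0.638 (rho = 0.743, permutation adjusted p = 0.00012) over all mice and 0.250 (permutation adjusted p = 0.591) within numbers. Ghr and Igf1 had r = 0.535 (rho = 0.572, permutation adjusted p = 0.00036) over all mice and 0.466 (permutation adjusted p = 0.449) within numbers, and with equal read totals the first fell to 0.414 and the second to 0.137. The pairs with the receptor thus no longer passed within numbers, while those of Cish, Onecut1 and Bcl6 did, with r of 0.775, -0.715 and -0.505 at equal read totals. Shuffling within numbers is limited to the few mice of each, so a pair can fail with r little changed, as Ghr and Igf1 did. Whether the pairs differ in this was not tested.

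**Figure D4:**
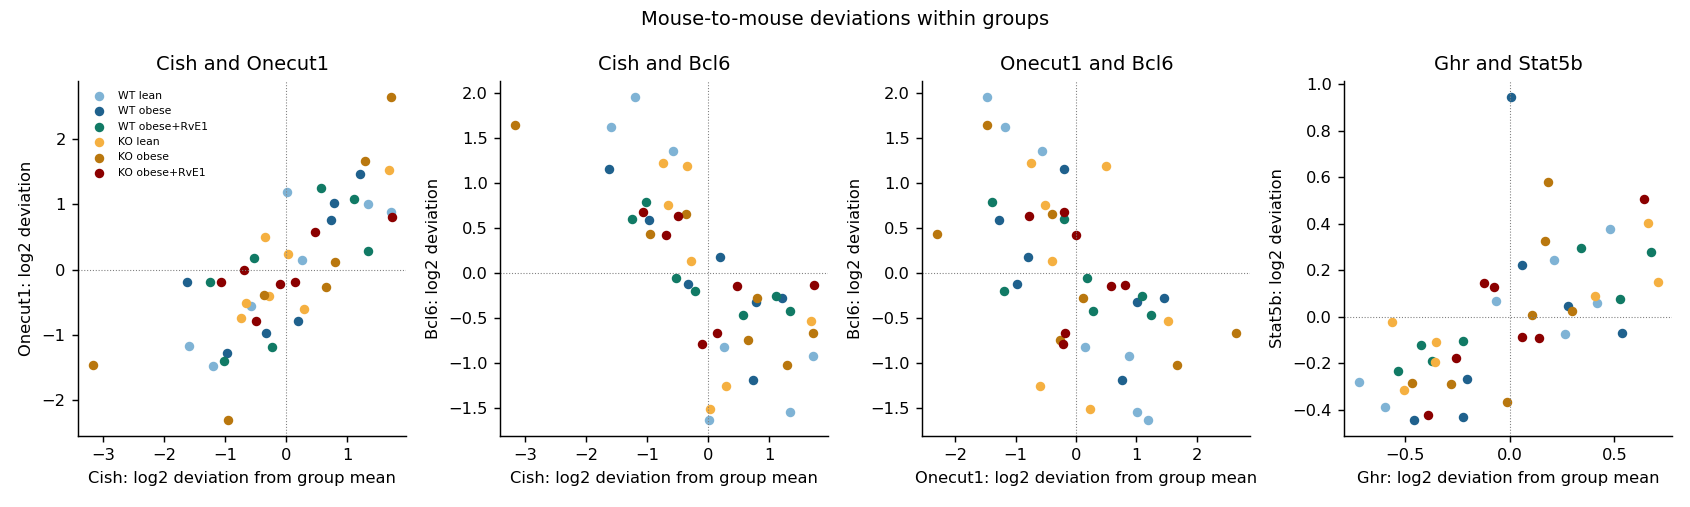
Deviation of each of 42 mice from its group mean, on the log2(normalized count + 1) scale, for 4 pairs of genes, coloured by group. Cish and Onecut1 rise together (r = 0.767), Bcl6 falls as Cish (r = -0.733) and Onecut1 (r = -0.597) rise, and Ghr and Stat5b rise together (r = 0.638).

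Over all mice Socs2 was tied less tightly to these genes. Its r was 0.448 with Onecut1, 0.466 with Igfals and 0.407 with Cish, with permutation adjusted p of 0.0134, 0.0134 and 0.0366, and rho of 0.484, 0.461 and 0.362. With the 2 farthest mice left out these were 0.454, 0.368 and 0.294, and Cish and Socs2 no longer passed (permutation adjusted p = 0.24), nor did they within identifier numbers (0.115). Within numbers Socs2 did pass with Onecut1 (r = 0.576) and with Igfals (r = 0.579), at a permutation adjusted p of 0.0269 for each. The other pairs that passed over all mice were Stat5a and Igfals (r = -0.510, rho = -0.479, permutation adjusted p = 0.0132), Igfals and Onecut1 (r = 0.343, rho = 0.418, 0.0449) and Stat5a and Stat5b (r = 0.408, rho = 0.267, 0.085). Without the 2 farthest mice they had r of -0.469, 0.351 and 0.288. Stat5a and Stat5b then no longer passed (permutation adjusted p = 0.24), nor by Spearman (0.27), though within identifier numbers they did (0.0315). Within numbers Stat5a and Igfals (permutation adjusted p = 0.25) and Igfals and Onecut1 (0.379) did not pass. With equal read totals Stat5a and Igfals did not pass either (r = -0.293, permutation adjusted p = 0.244). Stat5a and Igf1 (r = -0.480, 0.023) and Stat5b and Igfals (r = -0.478, 0.030) passed at equal totals though not in the main test. These pairs thus depended on the scaling. Igf1 and Igfals, whose proteins travel in 1 complex, had r = 0.368 (rho = 0.259, permutation adjusted p = 0.201).

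The genes whose deviations were most like those of each member are given as a description over 42 mice and 12031 genes, with mice of 1 number sharing what that number stands for. For Cish they were Rgs3 (r = 0.820), Onecut1 (0.767) and Foxq1 (0.713), and of all 12031 genes Bcl6 had the lowest r. The converse held for Bcl6, whose lowest r was with Cish, and whose nearest were Mycn (0.664), Fermt2 (0.648) and Snai2 (0.608). Onecut1 was nearest to Slc25a30 (0.768), Cish (0.767) and Zfp809 (0.738), and its lowest r was also with Bcl6. Socs2 had weaker neighbours, 5830473C10Rik (0.601), Smad9 (0.565) and Zfp598 (0.551). Ghr was nearest to Coq10b (0.929), Aldh4a1 (0.921) and Stim2 (0.905), and Stat5b to Ulk1 (0.894), 4833439L19Rik (0.892) and Map3k6 (0.878). Stat5a was nearest to Arhgef18 (0.860), Rab11fip3 (0.797) and Arhgef5 (0.790). Igf1 was nearest to Akirin2 (0.867), Gm4788 (0.862) and Rab18 (0.858), and Igfals to 1810009A15Rik (0.721), Ptcd2 (0.717) and Stard7 (0.706).

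Other genes of GH signalling were read from a list of 25 kinases, adaptors, phosphatases and SOCS and STAT genes. In WT mice 3 were lower in obesity and 0 higher, with a list median log2 fold change of -0.15 against 0.003 over all genes. They were Irs1 and Irs2, adaptors of the insulin and IGF1 receptors, at -0.97 (SE 0.18, limma adjusted p = 0.00717) and -1.48 (SE 0.35, 0.0279), and Stat6 at -0.30 (SE 0.09, 0.0806). In KO mice 3 of 25 were higher and 0 lower, below the 24.1% called over all genes, with a median of 0.0143 against -0.0021. They were Pik3r1, a regulatory subunit of phosphoinositide 3-kinase, at 1.07 (SE 0.19, limma adjusted p = 0.0042), Jak2, the kinase bound to GHR, at 0.37 (SE 0.12, 0.0495), and Ptpn2, a phosphatase of JAK and STAT proteins, at 0.38 (SE 0.14, 0.0714). Between KO lean and WT lean mice 6 were lower and 0 higher, with a median of -0.096 against -4e-04. Irs2 (-1.35, SE 0.38, limma adjusted p = 0.0482), Ptpn2 (-0.38, SE 0.12, 0.0609) and Pik3r1 (-0.57, SE 0.18, 0.0682) led them. The shares called over all genes were 6.27%, 24.1% and 16.3%.

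Of the IGF list, with receptors, binding proteins and their proteases, 12 of 16 genes were tested in these 3 comparisons. In WT mice, where 6.27% of all genes were called, 1 was lower. It was Igfbp1, an insulin-suppressed binding protein, at -1.47 (SE 0.47, limma adjusted p = 0.0997). In KO mice 3 of 12 were lower, a share near the 24.1% called over all genes. Igfbp2, a carrier of IGF1 and IGF2 made in hepatocytes, averaged 11742 normalized counts in KO obese mice (SD 6664, n = 7) and 32741 in KO lean mice (SD 8862, n = 7). Its log2 fold change was -1.62 (SE 0.29, limma adjusted p = 0.0042). Igfbp6 (-1.69, SE 0.47, limma adjusted p = 0.0272) and the protease gene Htra1 (-0.59, SE 0.23, 0.0911) were the others, at means of 52.7 and 39.3 normalized counts in KO lean mice. Between the lean genotypes 2 of 12 were lower in KO mice, a share near the 16.3% called over all genes. They were Insr (-0.43, SE 0.14, limma adjusted p = 0.0701) and Igf2r (-0.40, SE 0.13, 0.0714).

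The liver genes that depend on the sex-specific GH pattern were read in the diet comparisons, where 6.27% of all genes were called in WT and 24.1% in KO mice. Of 24 female-biased genes tested in WT mice 7 were higher in obesity and 0 lower, and the list median was 0.39 on the log2 scale. In KO mice 9 of 26 were higher and 3 lower, with a median of 0.44. A gene was tested if it averaged at least 5 over both groups together. Genes averaging under 5 in lean mice, such as Cyp2b9 and Hao2, therefore entered only through the obese mice. The filter raises the counts of higher genes and the medians, which are given as description only. Cyp2b9, a cytochrome P450 kept low in male liver, was highest in both, at 6.28 (SE 0.82, limma adjusted p = 0.000885) in WT and 7.64 (SE 0.98, 0.00154) in KO mice, from a mean of 2.76 and 3.53 normalized counts in lean mice. Cyp2b10 rose by 3.20 (SE 0.54, limma adjusted p = 0.00395) and 4.22 (SE 0.65, 0.00255), and Hao2, a peroxisomal oxidase at a mean of 0.443 and 0.987 normalized counts in lean mice, by 2.89 (SE 0.53, 0.00627) and 3.69 (SE 0.68, 0.00481). Cyp2b9, Cyp2b10 and Cyp2b13 are near copies whose reads may be divided among them. The 3 lower in KO mice were Nipal1 (-1.66), Cyp17a1 (-1.32) and Acot3 (-1.36).

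Of 25 male-biased genes 3 were lower and 1 higher in WT obese mice, and the list median was -0.23 on the log2 scale. In KO mice 9 were lower and 1 higher, with a median of -0.79. Elovl3, a fatty acid elongase, had log2 fold changes of -1.88 (SE 0.21, limma adjusted p = 0.000291) in WT and -1.71 (SE 0.35, 0.00747) in KO mice, from 6769 and 6879 to 1869 and 2007 normalized counts on average. Cyp4a12b fell by 1.88 (SE 0.27, limma adjusted p = 0.00166) and 1.96 (SE 0.38, 0.00601). Cyp4a12a fell by 1.24 (SE 0.22, limma adjusted p = 0.00545) in WT mice and was also called lower in KO mice, and Cspg5 fell by 1.48 (SE 0.37, limma adjusted p = 0.0183) in KO mice. Hsd3b2 was the gene that rose in each, by 0.94. Between the lean genotypes 4 of 25 male-biased genes were higher in KO mice and 0 lower, a share near the 16.3% called over all genes, led by Mup20 (0.87, SE 0.27, limma adjusted p = 0.064), Ugt2b38 (0.80, SE 0.28, 0.0782) and Mup1 (1.24, SE 0.44, 0.0821), and the Mup genes are near-identical copies. No female-biased gene of 21 tested passed there.

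**Figure D5:**
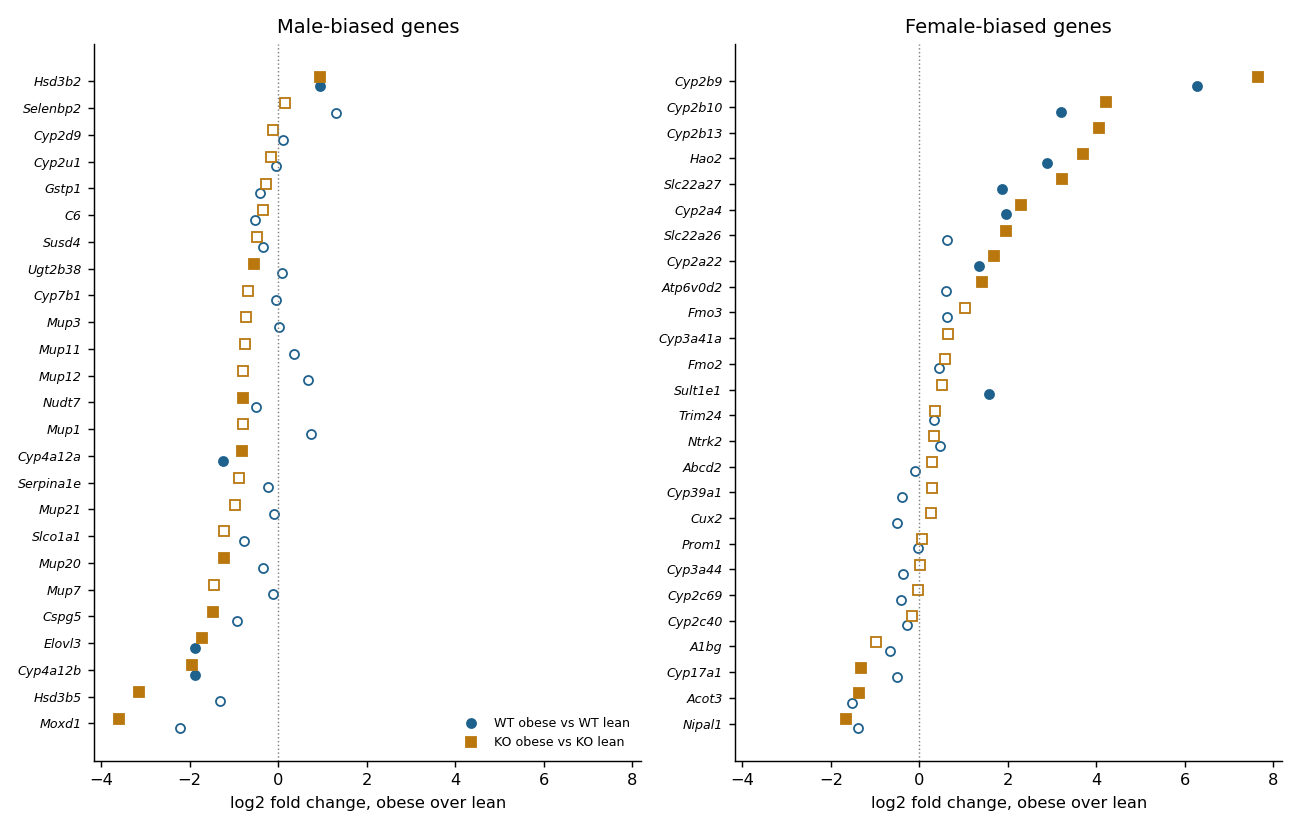
Log2 fold change of obese over lean mice for the male-biased and female-biased genes tested, with circles for WT and squares for KO mice, filled at a limma adjusted p under 0.1. Cyp2b9 reaches 6.28 and 7.64 on the female-biased side, and Elovl3 and Cyp4a12b lie between -1.71 and -1.96 on the male-biased side in both genotypes.

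In KO obese mice 10 of 20 other liver transcription factors were higher and 1 was lower, where 24.1% of all genes were called. In WT obese mice, where 6.27% were, 1 was higher (Nr1i3, 0.94, SE 0.29, limma adjusted p = 0.0912). With limma, 0 of the 20 passed the diet by genotype interaction. The leading KO genes were Tox (1.13, SE 0.19, limma adjusted p = 0.00327), Nr1i3, which encodes the xenobiotic receptor CAR (0.60, SE 0.10, 0.00388), and Zbtb20 (1.02, SE 0.23, 0.0115), and Cebpa was lower (-0.81, SE 0.16, 0.0064). Between the lean genotypes, where 16.3% of all genes were called, Cebpa was higher in KO mice (0.69, SE 0.18, limma adjusted p = 0.0417). Of the other factors 4 were lower there, led by Zbtb20 (-0.92, SE 0.26, limma adjusted p = 0.0476), Onecut2 and Tox. The comparisons share the KO lean mice, so opposite signs in them are not separate results.

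Lists that follow the time of day, feeding and handling were read beside these, since Cish, Socs2 and Bcl6 respond within hours. Of 14 clock genes tested 3 were higher and 2 lower in WT obese mice, among them Per3 (1.48, SE 0.24, limma adjusted p = 0.00284) and Clock (-0.70, SE 0.15, 0.0146). In KO obese mice 4 were higher and 1 lower, among them Hlf (0.72, SE 0.11, limma adjusted p = 0.00255) and Per2 (1.31, SE 0.30, 0.0133), and in KO lean against WT lean mice Nfil3 was lower (-1.01, SE 0.32, 0.0615). Of 10 fasting-responsive genes 2 were lower in WT obese mice, Fgf21 (-1.68, SE 0.33, limma adjusted p = 0.0102) and Pdk4 (-2.10, SE 0.64, 0.087), and 2 in KO obese mice, Fgf21 (-1.39, SE 0.30, 0.009) and Angptl4 (-0.81, SE 0.27, 0.0526). Of the immediate early genes 2 of 12 were lower in WT obese mice, 1 of 11 was higher in KO obese mice, and 2 of 11 were lower in KO lean than in WT lean mice, led by Nr4a1 (-2.76, SE 0.72, limma adjusted p = 0.043). Over all genes 6.27% were called for diet in WT mice, 24.1% for diet in KO mice and 16.3% between the lean genotypes. In KO obese mice the fasting and immediate early counts were near or below that share. Between the lean genotypes the clock and immediate early counts were as well. The part of time of day, fasting or handling in the values of Socs2, Onecut1 and Ghr was not tested. In the RvE1 comparisons, the obese genotype comparison and both interactions no gene of any of these 8 lists passed.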

How the data were processed

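Liver RNA of 42 mice was sequenced as paired reads from a stranded TruSeq total RNA kit, although the labels give the molecule as polyA RNA. Per the labels and the study's methods, the authors aligned reads to mm10 with Bowtie2, used featureCounts for read pairs with both ends mapped, and normalized each comparison on its own with DESeq2. No source used here gives versions, gene annotation or strand setting. The deposited signal values are these counts divided by size factors, so they compare only within a table. Each was a whole number of reads within 0.1 reads (100%). Normalized counts were read from the tables, and the authors' fold changes and p-values in them were not used.

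The test was limma 3.58.1 in R 4.3.3 (lmFit, then eBayes with trend) on log2 of the normalized count plus 1, for genes averaging at least 5. It was two-sided, BH adjusted over all genes of the table, with calls at an adjusted p under 0.1. For genes with few reads this scale makes changes look smaller. Interactions used fold changes formed within each table. Alternatives were pseudocounts of 0.5 and 4, no filter, a minimum of 20, TMM, equal read totals, a length and GC correction, library quality weights, a random block for the identifier number, calls at 0.05, a fold change above 1.5, edgeR 4.0.16 and DESeq2 1.42.0 on recovered reads, and leaving out each mouse or identifier number. Only the limma test of group differences, without interactions, was tried on simulated counts. These were drawn independently for each mouse, without a tie between mice that share a number. Gene models were GENCODE M21 on GRCm38, the build of mm10, and 92.9% of names matched.

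The 9 genes, the lists and the tests were chosen with earlier results of these data known. Named list genes were the called ones with the smallest adjusted p, at most 3 in each direction. Date-like gene names were kept in the tests and never named.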

Additional observations from a re-analysis of the deposited data

Results flagged for a closer look

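Of 54 sets of 7 mice (9 genes in 6 groups), 2 held a mouse whose gap to the nearest other mouse was above Dixon's critical value of 0.568 of the group's range on the log2 scale, where chance flags about 1 in 20. Mouse 20R had 1238.5 normalized counts of Cish among KO lean mice, against 230.5 to 475 in the others (gap 0.570 of the range). Mouse 30R had 1459.7 normalized counts of Socs2 among WT obese+RvE1 mice, against 255.3 to 360.1 in the others (gap 0.803). With limma on all mice and equal library weights, no interaction of diet or RvE1 with genotype passed for a member.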

How the results depend on the processing

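In WT mice Socs2 was called in all settings that kept every mouse, and the count of members called was 0 to 1 with mice left out. In KO mice the 3 members called for diet became 1 (Stat5a) with the length and GC correction, the random block and an adjusted p under 0.05, 5 with library quality weights (Socs2 and Onecut1 added), 4 with edgeR or DESeq2 (Onecut1 added), and 1 to 4 with mice left out. For lean KO against lean WT mice the count of 1 became 2 with equal read totals, 3 with quality weights and 0 with the random block, and ranged from 0 to 3 with mice left out. For RvE1 in KO mice the count of 0 became 2 (Cish and Onecut1) with DESeq2, and was 0 to 1 with mice left out, the 1 being Cish without number 10. For the diet by genotype interaction it became 1 (Ghr) with quality weights and was 0 to 1 with mice left out. Counts for the other 3 tests stayed at 0. Of 36 pairs, 11 passed within groups and 6 within identifier numbers, the last chosen after seeing the data. No called value changed direction. Equal read totals moved the median of all genes by 0.14 (log2) for diet in KO mice and by -0.12 for the lean genotypes. No paired analysis was possible because the groups compared share at most 1 identifier number (23, in KO obese and KO obese+RvE1 mice). Depth limits Cish most, with 45 reads in 1 mouse. The cause of these changes was not tested.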
